A study of Mus musculus with 18 samples.

Results

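Mfsd2a, which encodes a transporter of lysophosphatidylcholine, was followed as 1 of the 24539 genes listed in mouse liver under 3 diets and in 2 kinds of RNA library. The gene was taken from its named row, with its read count in all 18 libraries, and it was chosen by its read counts, which differed strongly between diets in these same libraries. Its levels, differences and ratios are therefore given as a description with no test. Tests were kept for other genes, on lists of lipid, fasting and clock genes that leave Mfsd2a out. Those lists were themselves chosen with earlier results of these data known, so their counts of calls are no independent support.

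All mice were wild-type male C57BL/6 animals, 8 weeks old at the start, fed for 8 weeks and 16 weeks old at sampling. Control mice ate normal chow, HFD mice a high-fat diet, and HFD+LYC mice that high-fat diet with added lycopene, the red carotenoid of tomatoes. There were 3 livers per diet, and lycopene on chow was not analysed here, so an effect of lycopene could be seen only on top of the high-fat diet. Each liver gave 1 library of poly(A) RNA from total RNA (mRNA) and 1 of poly(A) RNA that sedimented with ribosome-nascent chain complexes (RNC), the complexes of ribosomes, the transcripts they are on and the peptides being made. The lycopene dose, the make-up of the diets, and the time of day and feeding state at sampling were not given in the sources used here.

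Mfsd2a belongs to the major facilitator superfamily of membrane carriers and moves lysophosphatidylcholine into cells together with sodium ions. Lysophosphatidylcholine (LPC) is phosphatidylcholine (PC) that has lost a fatty acid, and it carries long-chain polyunsaturated fatty acids such as docosahexaenoic acid in blood. The gene is best known from the endothelium of the blood-brain barrier. In mouse liver it is known as a gene of fasting, and the fatty acid sensor PPAR-alpha and glucagon have been described as raising it.

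Mfsd2a lies on the minus strand of chromosome 4, at 122946850 to 122961194 in RefSeq GRCm38.p6. The GENCODE transcript Mfsd2a-201 has 14 exons, 2151 exonic bases and 1602 coding bases, and the deposited files give a length of 2150 bases. The 250 bases before the transcript start of the RefSeq promoter table, chr4:122961189-122961438 on the minus strand (GRCm38.p6, from RefSeq), into which the gene span reaches by a few bases, are shown because the RNA level of this gene differed more between HFD and control than that of nearly every other gene. Capitals mark AGGTCA, the core letters that many nuclear receptors, PPAR-alpha among them, bind.
Mfsd2a promoter: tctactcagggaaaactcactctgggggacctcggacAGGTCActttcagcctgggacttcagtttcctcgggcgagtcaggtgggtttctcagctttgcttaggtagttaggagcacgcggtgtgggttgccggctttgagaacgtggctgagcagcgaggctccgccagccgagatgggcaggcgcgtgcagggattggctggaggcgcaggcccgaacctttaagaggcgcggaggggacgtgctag

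The capitals span bases 213 to 208 before the start. AGGTCA on either strand was found in 14% of the 32851 promoters of this length, so its presence in the Mfsd2a promoter is a common feature. No match was found there on either strand for CACGTG, the E-box of clock activators (6.02% of promoters), or TTATGTAA, the D-box of Dbp and its relatives (0.819%). TGACGTCA, the cAMP response element (1.55%), and GTAAACA, a forkhead site (3.17%), were likewise without a match. These motifs were searched on both strands, and none of them contains another. The stretch was 61.6% G and C, against a median of 52.4% over all promoters, and held 17 CpG pairs.

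The libraries differed in depth and in the number of genes they detected. Listed reads numbered 5806647 to 11613078 in mRNA and 4533729 to 12742436 in RNC libraries, so 3 reads stood for 0.235 to 0.662 CPM, the count scaled to library size. The 3 HFD+LYC RNC libraries stood apart from the rest, with reads from 8940, 9567 and 10037 genes, against 13324 to 14450 genes in the other RNC libraries. They listed 112, 70 and 74 genes with exactly 1 read, and the other RNC libraries 614 to 861. HFD+LYC mRNA replicate 2, the library with the highest Mfsd2a level, had 189 such genes, against 652 to 798 in the other mRNA libraries. The scaling factors of the 3 HFD+LYC RNC libraries by TMM (trimmed mean of M-values, which sets most genes level between libraries) were 0.428, 1.15 and 0.836. Every Mfsd2a value from these RNC libraries therefore depends on the scaling, and each is given below under more than 1 scaling. Hepatocyte markers were present in every library, with Alb at 9390 to 76260 CPM in mRNA. Counts from bulk liver do not tell more cells of a type from more RNA per cell.

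In total mRNA, Mfsd2a was close to the limit of detection on chow and abundant on both high-fat diets. Control libraries held 23, 14 and 16 Mfsd2a reads, with exact Poisson intervals of 14.6 to 34.5, 7.65 to 23.5 and 9.15 to 26.0 reads at 95% confidence, which cover counting error only. HFD libraries held 1537, 2560 and 1122 reads, and HFD+LYC libraries 2742, 6253 and 4067. Every HFD library thus held far more Mfsd2a reads than any control library, and every HFD+LYC library more than any HFD library.

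On the scale of TMM-scaled CPM, Mfsd2a stood at 3.02, 1.93 and 2.03 in the control mRNA libraries, 159, 291 and 111 in HFD, with 404, 849 and 496 in HFD+LYC. The means were 2.33 ± 0.603, 187 ± 93.6 and 583 ± 235 CPM (SD, n = 3 livers). The HFD mean was 80.4 times the control mean, and the closest pair of libraries from the 2 groups was 36.7-fold apart. The mean log2 difference of 6.24 compares with a pooled SD between livers of 0.56 on the log2 scale. Every HFD value lay above every control value, which held for 3.76% of the 12664 genes tested in this comparison. In the fit over all genes the Mfsd2a difference was the 2nd highest.

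With lycopene the level was higher still. The HFD+LYC mean was 3.12 times the HFD mean, a mean log2 difference of 1.68 with a pooled SD of 0.63, and the groups did not overlap. The margin between them was narrow: the lowest HFD+LYC library was 1.39 times the highest HFD library. Without HFD+LYC replicate 2, which listed few genes with 1 read, the log2 difference was 1.38. A gap of this kind was common, since 16.7% of genes were higher without overlap in HFD+LYC than in HFD mRNA, and the Mfsd2a difference ranked 360 among 12664 genes. Against control, the HFD+LYC mean was 251-fold higher, with a mean log2 difference of 7.93 and no overlap (14.3% of genes were higher without overlap). The last comparison shares its libraries with the other 2 and is no separate evidence. Under the 3 other scalings, the mRNA differences ran from 6.25 to 6.33 for HFD against control, 1.68 to 1.86 for HFD+LYC against HFD and 7.93 to 8.19 for HFD+LYC against control.

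Livers of 1 diet also differed among themselves in Mfsd2a mRNA. Replicate 2 was highest in HFD and in HFD+LYC and lowest in control, and the labels do not tie a replicate number to the same litter or day across diets. In the same 3 libraries the 10 most abundant genes took a smaller share of the reads than in the other livers of their diet, 17.4% in HFD, 7.68% in HFD+LYC and 15.5% in control. Whether that share had a part in the Mfsd2a level was not tested.

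In deposited RPKM, read counts set to transcript length and to the library total so that genes can be compared with each other, Mfsd2a ranked among the less abundant genes on chow and among the abundant ones on both high-fat diets. It stood at 1.13, 0.771 and 0.818 RPKM in control mRNA, ranks 10081, 11122 and 10999 in the library. In HFD mRNA it reached 67.1, 124 and 44.3 RPKM, ranks 886, 504 and 1371. In HFD+LYC mRNA it reached 189, 461 and 204 RPKM, ranks 399, 127 and 389. Ranks of HFD+LYC livers lay above those of HFD livers, and both lay far above control.

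**Figure D1:**
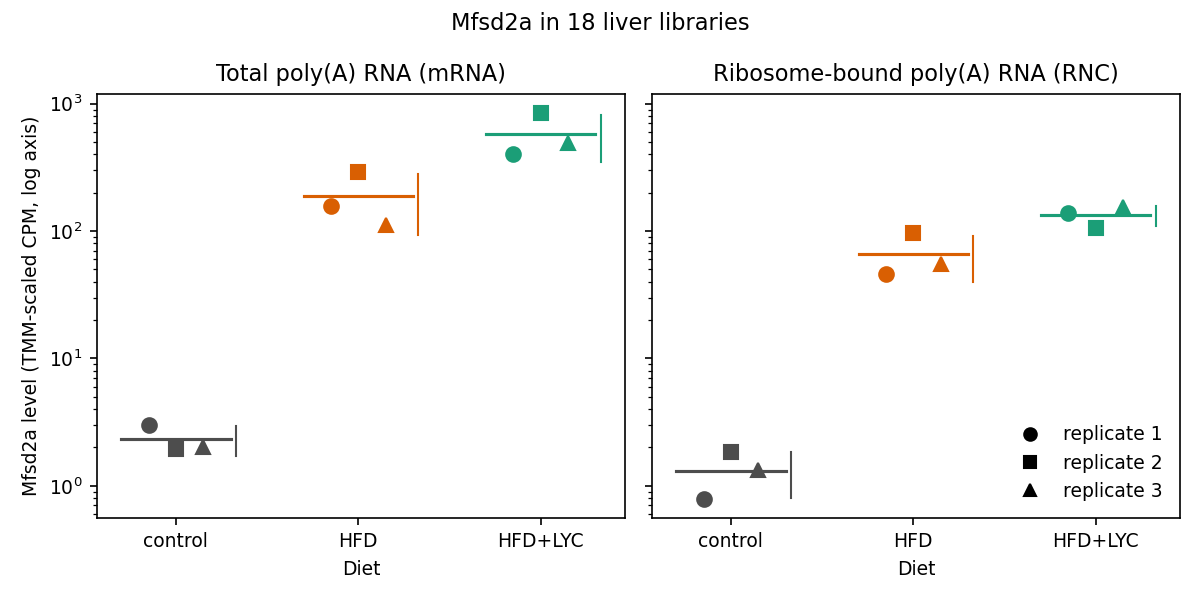
Mfsd2a level (TMM-scaled CPM, log axis) in each of the 18 libraries by diet, total mRNA on the left and ribosome-bound RNA (RNC) on the right. Symbols are libraries, horizontal lines group means and vertical bars 1 SD (n = 3); control mRNA lies at 1.93 to 3.02 CPM and both high-fat diets above 100 in mRNA. The step from HFD to HFD+LYC on the right was 1.07 (log2) with TMM and 0.17 with deposited RPKM, where the groups overlap.

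In ribosome-bound RNA with TMM scaling the diets stood in the same order. Control RNC libraries held 9, 23 and 17 reads, HFD 292, 1515 and 808, and HFD+LYC 674, 554 and 1144. Mfsd2a stood at 0.794, 1.83 and 1.32 CPM in control, 46.4, 95.9 and 55.3 in HFD, with 139, 106 and 153 in HFD+LYC. The means were 1.31 ± 0.517, 65.9 ± 26.4 and 133 ± 24.1 CPM (SD, n = 3). The HFD mean was 50.1 times the control mean, a mean log2 difference of 5.66 with a pooled SD of 0.58. Every HFD library lay above every control library, as for 6.97% of 11660 genes, and the fitted difference again ranked 2nd among all genes. Under the 3 other scalings it ran from 5.68 to 5.77.

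The step from HFD to HFD+LYC in RNC rested on the scaling. With TMM the mean ratio was 2.02, the log2 difference 1.07 and the groups did not overlap (13.3% of genes were higher without overlap). Yet the lowest HFD+LYC library was only 1.11 times the highest HFD library. With DESeq2 size factors, another scaling, the difference was 1.09, also without overlap. With the library total alone the difference was 0.37 and with deposited RPKM 0.17, and under both the groups overlapped. In RPKM the values were 21.1, 59.0 and 29.2 in HFD, with 25.5, 39.8 and 51.0 in HFD+LYC. Scaling moves all genes alike and so leaves the place among them as it is. Mfsd2a lay 1.07 above the median of 6427 genes (Mfsd2a and those with at least 10 reads in all RNC libraries), and 18% of these genes lay at or above it. That median itself was 0 with TMM, 0.02 with DESeq2 size factors, -0.69 with the library total and -0.90 with RPKM. Against control, HFD+LYC RNC was 101-fold higher by TMM, a log2 difference of 6.73. That difference was 6.77 with DESeq2 size factors, 6.14 with the library total and 5.90 with RPKM. The groups did not overlap in any of these (14.1% of genes were higher without overlap with TMM).

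All 18 libraries scaled together give 1 order of levels. Control mRNA (1.35 to 2.17 CPM) and control RNC (1.10 to 2.53) were lowest and overlapped each other. HFD RNC (66.0 to 135) and HFD mRNA (81.4 to 210) came next and also overlapped. HFD+LYC RNC (140 to 210) overlapped HFD mRNA and, with this scaling but not with RPKM, lay above HFD RNC. HFD+LYC mRNA (294 to 601) lay above every other library.

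Whether Mfsd2a transcripts were bound to ribosomes in step with their amount was asked from the ratio of RNC to mRNA CPM in each liver. Both libraries of a liver were joined by the animal codes of the deposited files, which the labels do not state. With TMM over all libraries, the ratio was 0.507, 1.88 and 1.24 in control livers, 0.578, 0.644 and 0.964 in HFD, with 0.646, 0.233 and 0.576 in HFD+LYC livers. The means were 1.21 ± 0.686, 0.729 ± 0.206 and 0.485 ± 0.221 (SD, n = 3 livers). The control values span more than those of the other diets and rest on 9 to 23 reads per library. All 3 diets overlapped.

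The mean log2 ratio of Mfsd2a in HFD minus control livers was -0.57, but -1.10 without control replicate 1 and -0.16 without control replicate 2. Of 6382 genes (Mfsd2a and those with at least 10 reads in every library), 3.18% lay at -0.57 or lower. For HFD+LYC minus control the change was -1.26, and 12.3% of these genes lay as low or lower. Both Mfsd2a values rest on few control reads. From HFD to HFD+LYC the mean log2 ratio of Mfsd2a changed by -0.68. That change ran from -0.96 without HFD+LYC replicate 1 to -0.22 without HFD+LYC replicate 2. In that comparison 28.4% of the 6382 genes lay as low or lower. With DESeq2 size factors the change was -0.56, and overlap under that scaling was not looked at. The overlap was lost with the library total alone and with RPKM. With the library total alone the ratios were 0.336, 0.386 and 0.656 in HFD, with 0.143, 0.114 and 0.287 in HFD+LYC, without overlap. With RPKM they were 0.315, 0.474 and 0.660 against 0.135, 0.0863 and 0.249, again without overlap. Many genes did the same: 30.1% of genes were lower without overlap with the library total and 42.1% with RPKM, against 16.4% with TMM. A ratio within libraries is relative and does not give the share of Mfsd2a molecules on ribosomes.

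**Figure D2:**
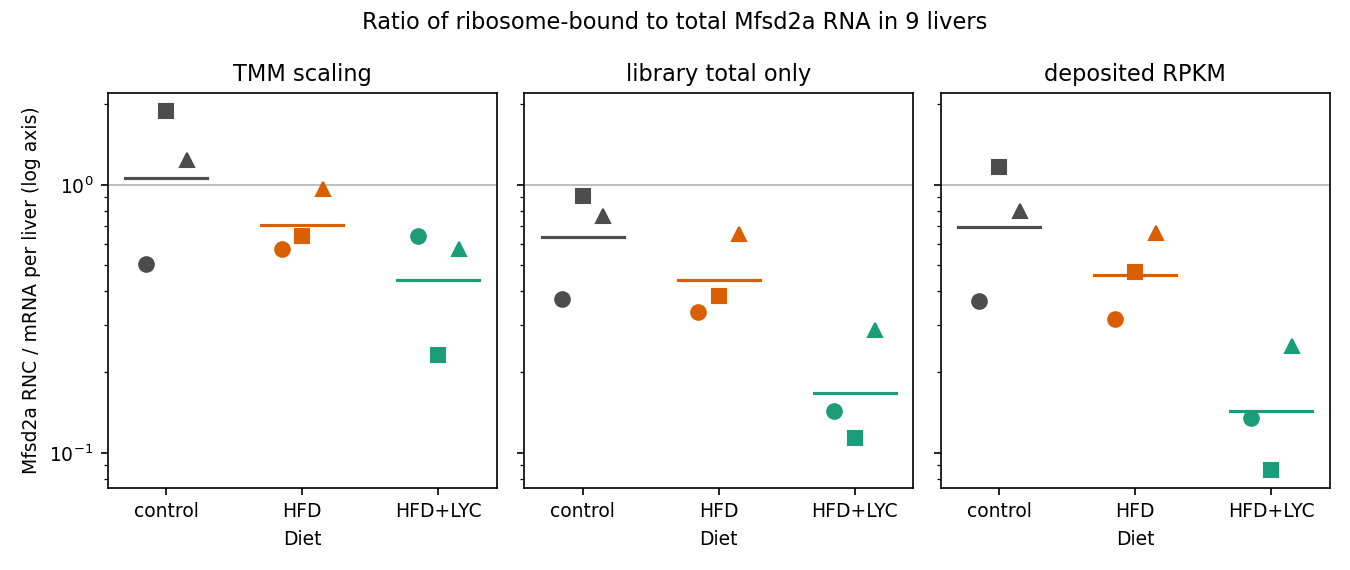
Ratio of RNC to mRNA level of Mfsd2a in each of 9 livers (log axis) under TMM scaling, the library total alone and deposited RPKM. Symbols are livers (circle, square and triangle for replicates 1, 2 and 3) and lines are geometric means; HFD and HFD+LYC overlap with TMM and separate under the other 2 scalings.

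Few of the other genes that handle the lipid Mfsd2a carries passed the test between diets in mRNA. Of 33 genes of LPC and PC metabolism in 4 lists, 28 were tested in mRNA, and 0 were called between HFD and control, where 0.0158% of all genes were called (edgeR quasi-likelihood test, Benjamini-Hochberg adjusted p under 0.05 over all genes; 358 genes had an unadjusted p under 0.05, 6 list genes were called by DESeq2 over all 9 lists and 0 by limma-voom). Their median log2 difference was -0.13, against -0.01 over all genes. They ranged from -2.04 for Chka, choline kinase, to 1.51 for Lipg, endothelial lipase, which cleaves phospholipids of lipoproteins.

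Among the 8 tested genes of phospholipases and Lcat, enzymes that make lysophospholipids, Lipg had the highest HFD against control difference. It stood at 2.23, 8.96 and 4.82 CPM in control, 8.37, 21.5 and 15.6 in HFD, with 29.3, 34.0 and 31.2 in HFD+LYC mRNA. Control and HFD overlapped, while HFD+LYC lay above both. In HFD+LYC against control Lipg rose by 2.56 (log2; edgeR adjusted p = 0.0134), a call lost without control replicate 3 (edgeR adjusted p = 0.075; 9.66e-06 to 0.075 over all alternatives).

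Between HFD+LYC and HFD mRNA, 2 of the 28 genes of LPC and PC metabolism were called higher and 0 lower, where 1.99% of genes were called higher and 0.916% lower. Pla2g6, a calcium-independent phospholipase, stood at 67.6, 51.9 and 44.6 CPM in HFD, with 153, 196 and 122 in HFD+LYC (log2 difference 1.52, edgeR adjusted p = 0.0336). Lypla2, a lysophospholipase and thioesterase, stood at 77.7, 80.8 and 58.2 CPM in HFD, with 248, 180 and 166 in HFD+LYC (1.46, edgeR adjusted p = 0.0327). In neither gene did the groups overlap. Both calls were lost without control replicate 3, any 1 HFD library, or HFD+LYC replicate 1 or 2, at edgeR adjusted p from 0.0595 to 0.109 for Pla2g6 and 0.0641 to 0.116 for Lypla2. The lists' median was 0.05, against -0.04 for all genes. With the replicate number as a block 3 were called higher and 2 lower: Lipg joined them (1.18, edgeR adjusted p = 0.0369), with Lipc (-1.12, 0.0456) and Lyplal1 (-0.94, 0.0485).

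Against control, HFD+LYC mRNA had 3 of those 28 genes higher (Lipg, Pla2g6 and Lypla2) and 1 lower, where 3.31% of genes were called higher and 2.23% lower. The lower one was Pla1a, a phosphatidylserine-specific phospholipase, at 47.9, 33.6 and 32.8 CPM in control and 15.9, 20.1 and 16.9 in HFD+LYC (log2 difference -1.11, edgeR adjusted p = 0.041). That call was lost without control replicate 1 or 3, HFD replicate 1 or 2, or any HFD+LYC library, at edgeR adjusted p from 0.059 to 0.141. Pla2g6 and Lypla2 lost theirs without the same 7 libraries, at 0.0516 to 0.208 and 0.0641 to 0.223. Lpcat3, which puts polyunsaturated fatty acids back onto LPC, had log2 differences of -0.19, 0.60 and 0.41 in the 3 mRNA comparisons, and none was called.

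In ribosome-bound RNA, 0 of 27 genes of LPC and PC metabolism were called between HFD and control, where 0.00858% of genes were called (edgeR; 214 genes had an unadjusted p under 0.05; over all 9 lists DESeq2 called 8 genes and a fit of the 6 libraries alone 4). Between HFD+LYC and HFD, 7 of 27 were called higher and 9 lower, beside 9.34% and 17.4% of all genes. Lcat, which turns PC of lipoproteins into LPC, stood at 128, 138 and 122 CPM in HFD, with 1301, 359 and 843 in HFD+LYC RNC, a log2 difference of 2.69 (edgeR adjusted p = 0.00244). In mRNA Lcat differed by 0.49 (edgeR adjusted p = 0.314). Pla1a, called lower in HFD+LYC against control mRNA, was called higher here, with log2 differences of 1.40 to 2.29 with each library left out. That call held in each of those fits and was lost with the library total alone. Lpcat2, Pla2g4a and Enpp6, called lower, had 0 reads in all 3 HFD+LYC RNC libraries, the ones with few genes detected, so their fitted differences set no size. Over all 9 lists the split was 16 higher and 26 lower of 99 tested. With the library total alone it was 6 and 26, and 12.1% of all calls were then higher instead of 34.9%. Without HFD replicate 3 the list calls numbered 25 in place of 42. Against control, 9 of the 27 genes of LPC and PC metabolism were called higher in HFD+LYC RNC and 8 lower, beside 9.23% and 17.1% of all genes. Lipc, lower against HFD in mRNA with the block, was among the higher. Its call was lost in 8 of 9 fits that left out 1 library, and with the library total alone.

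None of the 3 other lysolipid transporters tested was called between HFD and control mRNA, where 0.0158% of all genes were called. Mfsd2b, its closest paralog and a carrier of sphingosine-1-phosphate, stood at 0.305, 1.52 and 1.06 RPKM in control, 1.32, 0.870 and 0.299 in HFD, with 1.04, 4.42 and 0.865 in HFD+LYC mRNA. The 3 diets overlapped. Its log2 differences were -0.29 for HFD against control and 1.07 for HFD+LYC against HFD (edgeR adjusted p = 0.352). On this per-length scale Mfsd2a (0.907 ± 0.197 RPKM, n = 3) and Mfsd2b (0.959 ± 0.611) were at like levels on chow. On the high-fat diet Mfsd2a stood at 78.6 ± 41.3 and Mfsd2b at 0.830 ± 0.512 RPKM.

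Spns1, a lysosomal exporter of lysophospholipids, had a log2 difference of -0.01 between HFD and control mRNA. It stood at 31.4, 49.2 and 34.8 CPM in control, and at 91.1, 142 and 71.6 in HFD+LYC mRNA, without overlap. It rose by 1.40 (log2; edgeR adjusted p = 0.0463), a call lost without control replicate 1 or 3, HFD replicate 1 or 2, or HFD+LYC replicate 1 or 2, at edgeR adjusted p from 0.0531 to 0.188. Against HFD it was called with the replicate number as a block (1.39, edgeR adjusted p = 0.0175) and not without (0.0602). Spns2, an exporter of sphingosine-1-phosphate, had no call in any comparison. Of 19 tested genes of the Mfsd family, 0 were called in any mRNA comparison (with the block 1 in HFD+LYC against HFD, Mfsd10). Of all genes 0.0158% were called between HFD and control. In HFD+LYC 1.99% were called higher and 0.916% lower against HFD, and 3.31% and 2.23% against control. The HFD against control differences of the family ran from -0.73 for Mfsd7a to 0.69 for Mfsd9. In RNC, 5 of 16 were called lower in HFD+LYC against HFD and 0 higher, beside 17.4% and 9.34% of all genes. Of these Mfsd7a and Mfsd9 had 0 reads in all 3 HFD+LYC libraries. The calls of Mfsd6, Mfsd7a and Mfsd14b were lost in 6, 3 and 8 of 9 fits that left out 1 library, and that of Mfsd14a in 0. Mfsd9 was tested in 7 of those fits and lost its call in 6.

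Genes that make and activate the polyunsaturated fatty acids carried by LPC lay mostly above 0 on the high-fat diet without a call. In mRNA 7 of 9 tested genes were above 0 in HFD against control with a median of 0.41, and 0 were called, beside 0.0158% of all genes. Fads2, the delta-6 desaturase, stood at 47.4, 37.2 and 28.9 CPM in control, 85.5, 98.9 and 238 in HFD, with 64.3, 66.3 and 113 in HFD+LYC. Control lay below both other diets, which overlapped each other, unlike in Mfsd2a. The Fads2 difference of 1.90 did not pass (edgeR adjusted p = 0.567). From HFD to HFD+LYC mRNA 2 of 9 were above 0, with a median of -0.58 and 0 calls (1.99% of all genes were called higher and 0.916% lower). In RNC the same comparison had 1 of 9 called higher, Fads2, and 5 lower (Elovl2, Elovl5, Acsl4, Hsd17b4 and Scp2), with a median of -1.02 against -0.29 over all genes and beside 9.34% and 17.4% of all genes. Elovl5, a fatty acid elongase, fell by 1.84 (edgeR adjusted p = 0.00357) and Hsd17b4, a peroxisomal beta-oxidation enzyme, fell by 1.85 (0.000508). Calls of Elovl5, Hsd17b4 and Scp2 held without each library in turn, and those of Fads2, Elovl2 and Acsl4 did not. Against control, 1 was called higher and 3 lower in RNC, beside 9.23% and 17.1%.

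Since liver Mfsd2a is known as a fasting gene, 26 fasting and PPAR-alpha response genes were set beside it. In HFD against control mRNA 23 of 26 were above 0 with a median of 0.71, against -0.01 over all genes, and 0 were called (0.0158% of all genes). In RNC 22 of 26 were above 0, with a median of 0.72 and 0 calls (0.00858% of all genes). The range in mRNA was -0.89 (Igfbp1) to 3.32 (Cyp4a14), so the Mfsd2a difference of 6.24 lay outside it. Fgf21, a fasting hormone of the liver, stood at 1.71, 4.82 and 0.254 CPM in control, 12.2, 12.5 and 17.1 in HFD, with 4.72, 9.10 and 7.19 in HFD+LYC mRNA. From HFD to HFD+LYC the Fgf21 difference was below 0, unlike that of Mfsd2a. Neither of the Fgf21 differences passed (2.63, edgeR adjusted p = 0.644, and -0.99, 0.314).

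From HFD to HFD+LYC mRNA the fasting list split evenly, with 13 of 26 above 0, a median of 0.02, 1 gene called higher and 0 lower, near the shares over all genes (1.99% and 0.916%). With the replicate number as a block, 4 were called higher and 2 lower. The called gene was Angptl4, a PPAR target that inhibits lipoprotein lipase. It stood at 36.9, 138 and 49.9 CPM in control, 92.8, 122 and 95.2 in HFD, with 448, 401 and 431 in HFD+LYC mRNA. Its HFD+LYC livers lay above all others, and control and HFD overlapped. The log2 difference was 2.05 (edgeR adjusted p = 0.0405), lost without control replicate 3, any 1 HFD library or any 1 HFD+LYC library (0.0611 to 0.122).

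Against control, 3 of 26 fasting genes rose in HFD+LYC mRNA and 0 fell, beside 3.31% and 2.23% of all genes. They were Angptl4 (2.51, edgeR adjusted p = 0.0139), the acyl-CoA thioesterase Acot2 (2.28, 0.025) and the peroxisomal thiolase Acaa1b (2.29, 0.0194). Without control replicate 3 the calls of Angptl4 and Acaa1b were lost, at edgeR adjusted p of 0.0897 and 0.118. Acot2 lost its call without control replicate 3 or HFD+LYC replicate 2 or 3, at 0.0576 to 0.127. Acaa1b had the stepwise order of Mfsd2a, with 540 to 1102 CPM in control, 1646 to 2233 in HFD and 2692 to 5790 in HFD+LYC mRNA, but over a far smaller range.

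Ribosome-bound RNA held more of the calls among fasting genes, as it did among all genes in both comparisons with HFD+LYC. Over all genes 3120 were called in RNC against 368 in mRNA between HFD+LYC and HFD. Between HFD+LYC and HFD RNC 2 of 26 rose (Angptl4 and Igfbp1) and 4 fell (Plin2, Ehhadh, Acadm and Fabp1), beside 9.34% and 17.4% of all genes. Against control 6 rose (Fgf21, Angptl4, Cyp4a14, Acot2, Vnn1 and Acaa1b) and 1 fell, beside 9.23% and 17.1%. Acadm, the medium-chain acyl-CoA dehydrogenase, was the 1 lower, and it fell by 1.71 (edgeR adjusted p = 0.00323). Angptl4 rose by 3.45 against HFD (edgeR adjusted p = 0.00374). Calls of Angptl4, Plin2, Ehhadh and Acadm against HFD, and of Angptl4, Acot2, Vnn1 and Acadm against control, held without each library in turn, and the other 5 did not. With the library total alone Igfbp1 lost its call against HFD, and Fgf21, Cyp4a14 and Acaa1b theirs against control.

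**Figure D3:**
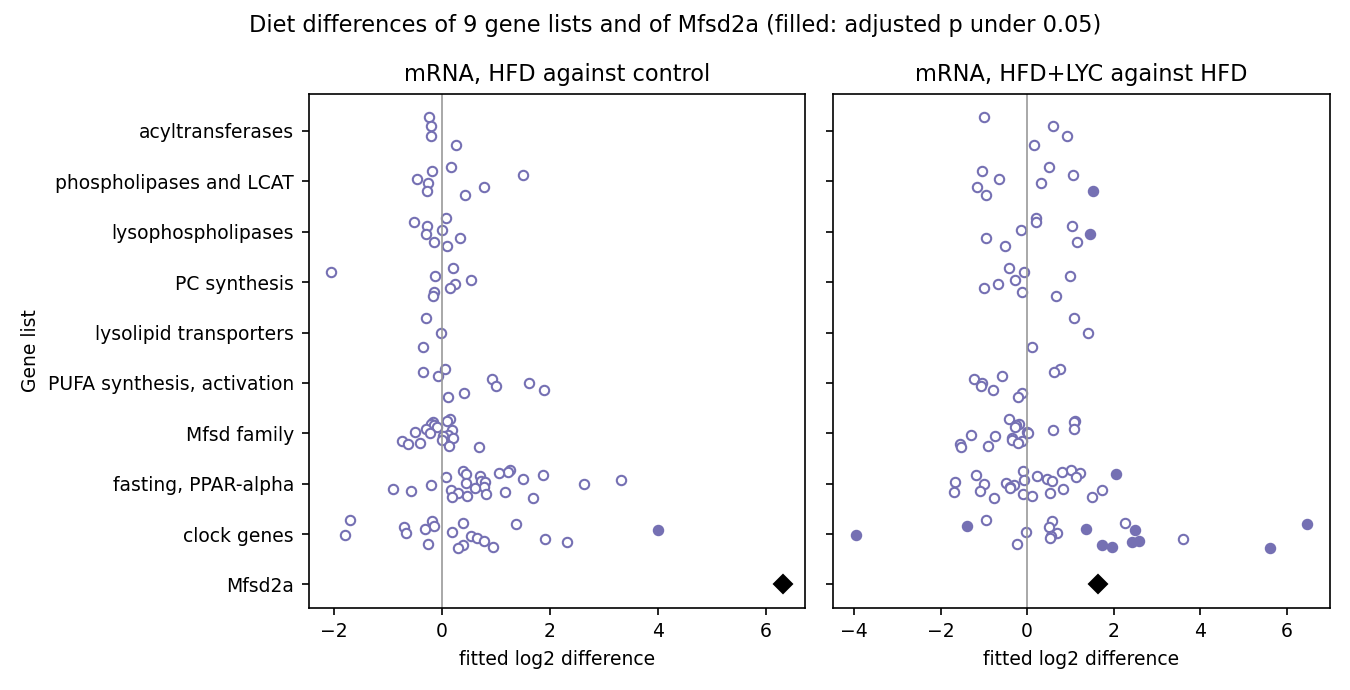
Fitted log2 differences in mRNA of the tested members of 9 gene lists, and of Mfsd2a (black diamond, not tested), for HFD against control (left) and HFD+LYC against HFD (right). Filled points passed an edgeR adjusted p of 0.05; on the left 1 of 104 list genes is filled (Dbp) and on the right 13 are, 10 of them clock genes.

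Clock genes and their outputs were the list with the most calls beside Mfsd2a. As the list was chosen with earlier results of these data known, that place is a description only. In HFD against control mRNA, 1 of 20 was called, beside 0.0158% of all genes. It was Dbp, a clock-controlled transcription factor of the PAR bZIP family. Dbp stood at 1.05, 1.52 and 1.52 CPM in control, 11.1, 33.6 and 22.2 in HFD, with 163, 114 and 100 in HFD+LYC mRNA. Like Mfsd2a it was separated between all 3 diets. The share of all genes separated in this way was not computed. Taken alone, the gaps were higher without overlap in 3.76% of genes for HFD against control. They were so in 16.7% for HFD+LYC against HFD and 14.3% for HFD+LYC against control. The log2 difference of Dbp between HFD and control was 4.02 (edgeR adjusted p = 0.0122). The call was lost without any 1 control library (0.0829 to 0.165), while the difference stayed at 3.60 to 4.34 with each library left out, and over all alternatives the adjusted p ran from 1.56e-12 to 0.212.

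From HFD to HFD+LYC mRNA, 8 of 20 clock genes rose and 2 fell, beside 1.99% and 0.916% of all genes. With the replicate number as a block 9 rose and 2 fell, beside 852 and 605 of all 12664 genes. Per1 was the gene added (4.44, edgeR adjusted p = 0.00514, and 0.0568 without the block). Ciart, a clock repressor, rose by 6.47 (edgeR adjusted p = 0.00146) and Usp2, a rhythmic ubiquitin protease, by 5.60 (0.00146). Dbp rose by 2.50 (0.0125), and Npas2, a partner of Bmal1, fell by 3.96 (0.0212). Calls of Ciart, Usp2 and Dbp held without each library in turn. Npas2 lost its call without HFD replicate 1 or HFD+LYC replicate 1 or 3, at 0.0506 to 0.0781. In contrast to Mfsd2a, Ciart and Usp2 did not separate HFD from control, with Ciart at 0.381 to 0.657 CPM in control and 0.296 to 2.85 in HFD, but 79.1 to 150 in HFD+LYC mRNA. In RNC, 6 of 19 clock genes rose (Per1, Per3, Cry2, Dbp, Tef and Usp2) and 3 fell (Npas2, Nr1d2 and Nfil3), beside 9.34% and 17.4% of all genes. There Tef, a relative of Dbp, rose by 2.30 (edgeR adjusted p = 0.000334) and held without each library in turn, while the rise of Dbp by 2.74 (0.0075) lost its call with the library total alone. Cry2 lost its call in RNC without any 1 HFD library and Nr1d2 without HFD replicate 3.

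Over all 9 lists, 11 of 104 genes rose and 2 fell in HFD+LYC against HFD mRNA, beside 1.99% and 0.916% of all genes. With the replicate number as a block 18 rose and 6 fell, all 13 earlier calls among them, and the calls over all genes went from 368 to 1457. The 13 calls became 6 without control replicate 3, 4, 7 and 4 without HFD replicates 1, 2 and 3, and 3 and 4 without HFD+LYC replicates 1 and 2. Of the mRNA calls named above, the library total alone also ended those of Dbp in HFD against control, of Pla2g6, Lypla2, Angptl4 and Npas2 in HFD+LYC against HFD, and of Pla2g6, Lypla2, Pla1a and Spns1 in HFD+LYC against control. Limma-voom ended those of Dbp, Angptl4, Npas2 and Spns1 in the same comparisons. A fit of the 6 libraries compared ended those of Dbp, of Lypla2 in both, and of Pla2g6, Pla1a and Spns1 in HFD+LYC against control. Without a filter on low counts Pla2g6 and Lypla2 lost theirs against control. In HFD+LYC against control mRNA, 17 genes rose and 4 fell (3.31% and 2.23% of all genes), 10 and 3 of them clock genes, and the 21 calls became 6 without control replicate 3. In HFD+LYC against control RNC, 23 of 99 rose and 18 fell, beside 9.23% and 17.1% of all genes. These 41 calls became 27 without control replicate 2 and 26 without control replicate 3. With the library total alone that split was 10 higher and 20 lower, with 15.1% of all calls higher in place of 35.0%.

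Which genes followed Mfsd2a most closely was described by Pearson's r of log2(CPM + 1) over the 9 libraries of a kind. The 9 points fall into 3 diets and share them with every gene that differs by diet, so r mostly ranks the diet pattern. In mRNA the 6 highest of 12460 genes were Dbp (0.951), Tigd5 (0.949), Cgref1 (0.949), Mgll (0.945), Eci2 (0.943) and Pik3r1 (0.943). Mgll encodes monoacylglycerol lipase, Eci2 an enzyme of unsaturated fatty acid oxidation and Pik3r1 a regulatory subunit of PI3-kinase. In RNC the 6 highest of 11046 genes were Apoa4 (0.944), Kdsr (0.939), Osbpl3 (0.936), Vnn1 (0.934), Fasn (0.932) and Golt1a (0.922). Apoa4 is an apolipoprotein and Fasn the fatty acid synthase. No gene was among the 6 highest of both kinds, and in mRNA the r of Kdsr was -0.542 and that of Fasn 0.344.

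The 6 names depended on the measure. With Spearman's rho 0 of the 6 remained in either kind, with the library total alone 2 in each, and over control and HFD libraries only, a choice added after the data were seen, 0 in mRNA and 1 in RNC. Leaving out each library in turn kept 1 to 5 in mRNA and 2 to 6 in RNC.

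In the 50 highest of both kinds were 9 genes: Dbp, Cyp17a1, Slc39a5, Tmem120a, Acot3, Lamb3, Lipg, Miga2 and Rgs16. Cyp17a1 encodes a steroid hydroxylase, Rgs16 a regulator of G protein signalling and Acot3 a peroxisomal acyl-CoA thioesterase. Among livers of the same diet, with the diet means removed, their r with Mfsd2a was lower for all 9 in both kinds. It was 0.160 for Dbp, 0.179 for Rgs16, 0.388 for Cyp17a1, 0.086 for Lipg and 0.755 for Lamb3, a laminin chain, in mRNA, and 0.746, 0.847, 0.691, 0.505 and 0.747 in RNC. Cyp17a1 shows the difference between these patterns. It stood at 0.762 to 1.18 CPM in control, 5.58 to 37.8 in HFD, with 17.7 to 32.7 in HFD+LYC mRNA, so unlike in Mfsd2a the high-fat groups overlapped. Of 16 likeness genes with a promoter in the RefSeq table, 0 held AGGTCA, 2 held CACGTG (Cgref1 and Mgll) and 1 held GTAAACA (Mgll).

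**Figure D4:**
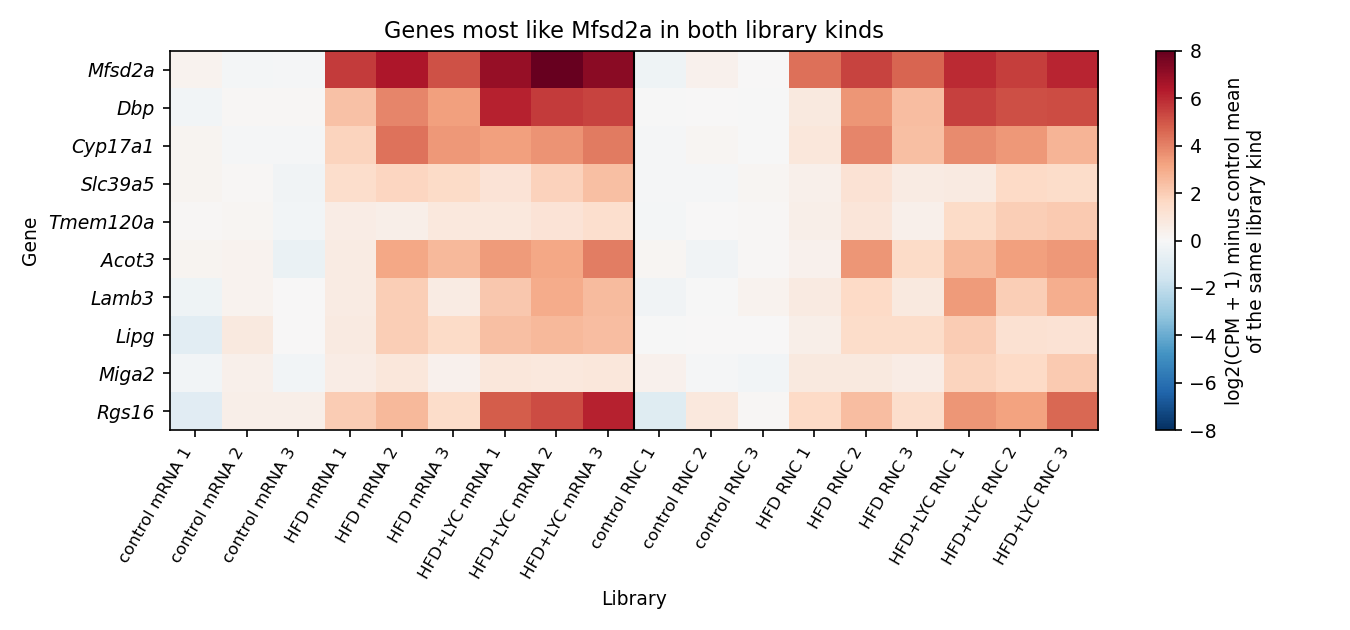
Level of Mfsd2a and of the 9 genes among the 50 most like it in both library kinds, as log2(CPM + 1) minus the control mean of the same kind, in each library. Rows are genes, columns libraries, and the scale runs from blue (lower) to red (higher); Mfsd2a is the darkest row in HFD mRNA. CPM are TMM-scaled, and with deposited RPKM the HFD and HFD+LYC RNC values of Mfsd2a overlap.

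No tested gene next to Mfsd2a on chromosome 4 was called. Cap1 (60.8 kb away) and Ppt1 (87.7 kb) on one side had log2 differences of 0.13 and 0.39 in HFD against control mRNA. On the other side lay Mycl (34.4 kb) and Trit1 (55.4 kb). Trit1 differed by 0.28. Mycl, a Myc-family transcription factor, stood at 3.41, 4.96 and 2.54 CPM in control and 8.37, 9.56 and 7.11 in HFD mRNA, without overlap. Such a gap was found in 3.76% of the genes tested in this comparison. The Mycl difference of 1.20 did not pass (edgeR adjusted p = 1.00). None of these 4 genes was called in any of the 6 comparisons. Of all genes 0.0158% were called in mRNA and 0.00858% in RNC between HFD and control. In the other comparisons at most 9.34% were called higher and 17.4% lower, so the absence of a call does not set these genes apart. 9530002B09Rik (242 kb) and Bmp8b (143 kb) had too few reads to be tested.

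Because Mfsd2a is best known from endothelium and is also found in other organs, markers of other cell types were read beside it. The summed level of 8 liver endothelial markers was 156 to 207 CPM in control, 176 to 214 in HFD and 198 to 240 in HFD+LYC mRNA, and every marker had reads in each group. In RNC that sum was 87.6 to 101 in control, 84.7 to 106 in HFD and 27.2 to 35.8 CPM in HFD+LYC. The 8 stellate cell markers went likewise in RNC, from 203 to 250 CPM in HFD to 62.9 to 95.5 in HFD+LYC, and the 8 hepatocyte markers the other way, from 70330 to 99960 to 111300 to 421400 CPM. The 6 adipocyte markers summed to 1.14 to 4.47, 5.92 to 15.2 and 3.24 to 147 CPM in mRNA. Most of that was Cfd, at 3.10, 55.8 and 145 CPM in HFD+LYC, while in control mRNA Adipoq, Plin1, Lep and Retn, and in HFD mRNA Plin1, Lep, Ucp1 and Retn, had 0 reads. In HFD+LYC mRNA each of the 6 had reads in the group. In RNC the adipocyte sum was 0.795 to 3.62 CPM in control, 6.64 to 18.6 in HFD and 79.9 to 218 in HFD+LYC. There all of them but Cfd had 0 reads in HFD+LYC. The 5 intestinal markers summed to 20.7 to 89.2, 80.9 to 252 and 27.7 to 165 CPM, with the defining Cdx2 and Lct at 0 reads in all 3 mRNA groups. The 8 Kupffer cell markers summed to 181 to 340, 269 to 537 and 169 to 319 CPM, and the 6 cholangiocyte markers to 142 to 167, 137 to 179 and 31.7 to 50.2 CPM. The higher Cfd in 2 of 3 HFD+LYC mRNA libraries and the lower cholangiocyte sum in all 3 go with the highest Mfsd2a levels. The adipocyte, endothelial, stellate and hepatocyte sums of HFD+LYC RNC go with the RNC values of Mfsd2a. The part of these markers in the Mfsd2a levels was not tested.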

How the data were processed

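Livers of 9 mice on 3 diets were measured by RNA sequencing of total and of ribosome-bound poly(A) RNA. Per the file headers, the authors deposited 3 values for each gene of a library: its read count, its RPKM and its longest transcript length, with splice variants merged. Per the series' design text reads were mapped to RefSeq RNA sequences, and per the submitters' processing notes bcl2fastq was used and the build was mm10. For the aligner and the strand setting, nothing is given in the sources used here. Counts as deposited were not normalized, and the authors' RPKM divided them by length and by a library total that exceeded the listed reads by 0.765% to 29.9% of that total. RPKM served to compare levels between genes and as an alternative scaling. The mRNA and RNC library of a liver were joined by animal codes in the names of the deposited files, which the labels do not state. Residuals of the joined libraries correlated at -0.05 to 0.641, over 0.1 in 3 of 9 livers.

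Tests of counts used edgeR 4.0.16 (R 4.3.3; filterByExpr by diet, minimum count 10 and total 15, TMM, robust quasi-likelihood fit), over 9 mRNA libraries (12664 genes) and 9 RNC libraries (11660 genes) apart, each with 6 residual degrees of freedom. The biological coefficient of variation was 0.352 and 0.524. A gene was called where its two-sided p, adjusted by Benjamini-Hochberg over all genes tested, was under 0.05. DESeq2 1.42.0 and limma-voom (limma 3.58.1) were alternatives, with other scalings, filters, samples in the fit and left-out libraries. The edgeR step was tested on simulated data. CPM are TMM-scaled within a library kind, except in the RNC to mRNA ratio and the order of all 6 groups, where all 18 libraries were scaled together. Replicates of a diet were separate animals and differed far beyond counting error (chi-square per degree of freedom 49.9 to 597).

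Mfsd2a, the 9 gene lists (116 genes) and the 11 marker lists were chosen with earlier results of these data known. Named genes are the list members called in any comparison, the 3 of highest mean RPKM in each list, the genes most like Mfsd2a with a mean of at least 1 CPM, Mfsd2b and the 3 nearest genes on each side; the text gives a part of them. Of 24539 symbols, 23724 matched RefSeq GRCm38.p6. Residuals of libraries with the same replicate number correlated over 0.1 in all 3 pairs of HFD+LYC against HFD mRNA (0.155 to 0.514) and in no other comparison. The labels give no shared litter or day. Values with the number as a block, fitted over all 9 mRNA libraries, stand beside the results of that comparison where they change a call or a count.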

Additional observations from a re-analysis of the deposited data

How the results depend on the processing

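No Mfsd2a difference and no named call changed direction under any alternative run. The list calls of HFD+LYC against control RNC did change balance, from 23 higher and 18 lower to 10 and 20 with the library total alone, and to 15 and 16, 13 and 14, and 12 and 14 without control replicates 1, 2 and 3. The mean log2 difference of Mfsd2a stayed within its spread between livers in mRNA. In RNC it moved from 1.07 to 0.37 with the library total alone and 0.17 with RPKM for HFD+LYC against HFD, and from 6.73 to 6.14, 5.90 and, with a prior of 0.5 CPM, 6.23 for HFD+LYC against control. Its RNC to mRNA log2 ratio moved from -0.68 to -1.40 and -1.70 with these 2 scalings for HFD+LYC against HFD, and from -1.26 to -2.29 with RPKM for HFD+LYC against control. Leaving out each library gave 5.86 to 6.56, 1.36 to 2.06 and 7.62 to 8.15 in mRNA, 5.33 to 5.94, 0.85 to 1.38 and 6.40 to 7.01 in RNC, and ratio changes of -1.10 to -0.16, -0.96 to -0.22 and -1.79 to -0.79 (each time HFD against control first, then HFD+LYC against HFD, then HFD+LYC against control).

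List genes called, in that order, numbered 1, 13 and 21 in mRNA and 0, 42 and 41 in RNC. DESeq2 gave 6, 23 and 37 in mRNA and 8 for HFD against control in RNC. Limma-voom gave 0 for HFD against control mRNA, and the 6 libraries alone 0 there and 4 and 21 in the first 2 RNC comparisons. The library total alone, added after the data were seen, gave 0 and 4 in the first 2 mRNA comparisons. Leaving out each library gave 0 to 1, 3 to 15 and 6 to 25 in mRNA, and 0 to 1, 25 to 50 and 26 to 47 in RNC; with 1 library out, a group of 2 shares the spread of the others. Of 118 calls of 57 named list genes under 1878 alternatives, 1491 kept and 387 lost the call, and none changed direction. With the replicate number as a block, 24 and 33 list genes were called in HFD+LYC mRNA against HFD and control, and the Mfsd2a differences stayed within its spread. Residuals of libraries with the same number correlated at -0.471 to 0.514 in mRNA (7 of 9 pairs over 0.1) and -0.086 to 0.375 in RNC (2 of 9). Not every library correlated best with its own number: an HFD against control mRNA pair gave -0.471 with the same number and 0.559 with another. In HFD+LYC against HFD mRNA all 3 pairs were over 0.1 (0.155, 0.340 and 0.514), and there the block raised the calls over all genes from 368 to 1457. Of the 6 genes most like Mfsd2a, 0 remained in either kind with Spearman's rho, 2 with the library total, 0 (mRNA) and 1 (RNC) over control and HFD libraries, and 1 to 5 and 2 to 6 with 1 library left out. The cause of these changes was not tested. Depth limits mainly the control levels of Mfsd2a, at 9 to 23 reads, and any fold or ratio taken against them.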
